A study of Rattus norvegicus with 6 samples.

Results

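Cytosolic ribosomal proteins are the protein subunits of the ribosome that translates messenger RNA in the cytoplasm. Their genes were taken here as those whose symbol, paired alone with a probe set of the array, is Rpl or Rps with a number (and an a, x or y where there is one), Rplp0, Rplp1, Rplp2 or Rpsa. This gave 68 of the 14506 genes tested, 42 of the large subunit and 26 of the small subunit, each represented by the probe set with the highest mean over the 6 samples. Fau, a fusion of a ubiquitin-like protein with Rps30, did not match the symbol rule and is described with the related genes. The paralogs Rpl22l1 and Rps4y2 did not match the symbol rule either and are given there too. Other cytosolic ribosomal protein genes were not analysed here.

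The samples were primary cardiomyocytes, heart muscle cells in culture, isolated from the ventricles of 2-day-old Sprague-Dawley rats and pre-plated to lower the share of fibroblasts. 3 samples were treated for 24 h with hCT1 (human cardiotrophin 1, a cytokine of the interleukin-6 family) at 0.5 nM, and 3 control samples received serum-free medium without it. Each sample's total RNA went onto an Affymetrix array that covers whole rat transcripts. For all 6 samples, controls included, the recorded growth protocol mentions a hypertrophic agonist in the medium, although the recorded treatment of the controls was serum-free medium alone; with an agonist in the control medium, each difference given here would be against it. RNA was isolated in triplicate, and whether the triplicates were separate cultures is not stated, so the p-values reflect only the variation among these 6 samples, possibly a technical one. In such bulk RNA, fewer cells of a type and less RNA per cell cannot be told apart. The 8 cardiomyocyte markers examined had mean log2 values between 8.37 and 12.20; without detection calls, and since signal depends on the probes, the makeup of the cultures was not read from such levels.

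Each ribosome is built from ribosomal RNA and 1 copy of most ribosomal proteins, so cells make these proteins in near-balanced amounts. In mammals the messenger RNAs of this family usually begin with a cytosine followed by an unbroken run of pyrimidines, the 5′ terminal oligopyrimidine (TOP) tract, through which mTOR signalling controls their translation. Heart muscle cells increase ribosome production when they enlarge. Ribosomal protein genes of mammals have many processed copies elsewhere in the genome, often nearly the same in sequence, so a probe set can receive signal from more than 1 locus.

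The TOP tract is the sequence feature that joins the family, and the start sites of 6 genes that fell and 6 that did not pass the test are shown to set them side by side. Each line holds 30 bases, of which base 11 is the annotated transcription start in the RefSeq promoter table of GRCr8. The capitals mark the longest run of C and T.

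Rpl13: cggtgcccgaTCCTTTCCgctcggccgttc
Rpl22: gcgCCCCCCTCCCTTTCTgcctcctctgcc
Rpl34: TCCTTTTCCTCTTCCggggacggtgcttag
Rpl35: CTTCCTCTTTCTCTCgaaccgggcggcctc
Rps14: ccgTCTCTCTCTTTCCggtggaggagtctg
Rps21: agccaCTTCCTTTCTgtgttctccgtagac
Rpl10: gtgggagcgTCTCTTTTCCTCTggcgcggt
Rpl19: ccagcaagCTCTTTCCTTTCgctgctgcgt
Rpl28: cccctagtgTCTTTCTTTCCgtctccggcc
Rpl31: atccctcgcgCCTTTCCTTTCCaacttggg
Rps2: TCTTTTTCTTCgggaaaacacgtgagtctg
Rps4x: cgcgcgcagcctccgaccctaaTTTCTTCg

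The first 6 lines are genes that were lower with hCT1: Rpl13 lay at chr19:68062504-68062533 (plus strand), Rpl22 at chr5:168117951-168117980 (plus strand), Rpl34 at chr2:221962264-221962293 (minus strand), Rpl35 at chr3:43165902-43165931 (minus strand), Rps14 at chr18:56498250-56498279 (plus strand) and Rps21 at chr3:187724028-187724057 (plus strand). The last 6 are genes with no call: Rpl10 at chrX:157205840-157205869 (plus strand), Rpl19 at chr10:83519054-83519083 (plus strand), Rpl28 at chr1:78083513-78083542 (minus strand), Rpl31 at chr9:49143101-49143130 (plus strand), Rps2 at chr10:14251838-14251867 (plus strand) and Rps4x at chrX:71342902-71342931 (minus strand). These 12 were chosen after their values were seen. Runs of C and T at or beside the start stood in both sets, although the run of Rps4x lay further downstream. A C at the start followed by at least 4 C or T was more frequent among these 12 than in the family, whose shares follow.

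The promoter table held 56 of the 68 genes. A C at the annotated start followed by at least 4 further C or T, read on the transcribed strand only, was found in 22 of these 56 (39.3%) and in 2.63% of all 33469 promoters of the table. CTTTC, searched on the same strand and able to overlap that run, was found within the 30 bases in 41.1% of the ribosomal protein genes and 3.39% of all promoters. A run at the start was present in 7 of 19 genes that fell (36.8%) and in 15 of 37 with no call (40.5%), so the shares lay close together. By subunit, the run stood at the start in 44.1% of 34 large subunit genes and 31.8% of 22 small subunit genes. Among other genes listed as having TOP messenger RNAs it stood there in 0 of 16, with CTTTC in 6.25%, and among mitochondrial ribosomal protein genes in 2 of 56 (3.57%), with CTTTC in 5.36%. Annotated starts are often a few bases off the main start in a tissue, and a match or its absence describes these letters only.

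With hCT1, 22 of the 68 genes fell and 0 rose at a Benjamini-Hochberg adjusted p under 0.05 in limma, and the other 46 did not pass. At an unadjusted p under 0.05, 35 were lower and 1 was higher, beside 2592 lower and 1735 higher of all 14506 genes. Over all genes tested, 9.58% were lower and 5.09% higher, against 32.4% lower among the ribosomal protein genes. The median log2 fold change (hCT1 minus control) was -0.13 over the 68 genes and 0.0 over all genes, and 61 of the 68 had a negative value. Differences were small: the largest fall was 1.48-fold, and the SE of single genes ran between 0.05 and 0.12 on the log2 scale. In 45 genes every hCT1 sample lay below every control sample, against 20.0% of all genes, and in 1 gene, Rpl15, every hCT1 sample lay above, against 14.2%. These counts describe the family, and no test of the family as a whole was made.

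The small subunit had 12 of 26 genes lower (46.2%) with a median of -0.20, and the large subunit 10 of 42 (23.8%) with a median of -0.11. The difference between the subunits was not tested. All samples of a group showed the pattern: the median deviation of the 68 genes from their own means was -0.09, -0.07 and -0.06 in the hCT1 samples and 0.06, 0.05 and 0.08 in the control samples. The count for the large subunit was 6 to 8, in place of 10, whichever 1 sample was left out. It was 6 without hCT1 replicate 1, hCT1 replicate 2 or control replicate 1. Over all probe sets, the 1506 lower calls also dropped then, to 891, 814 and 803. The small subunit count was 9 to 11, in place of 12, whichever 1 sample was left out.

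**Figure D1:**
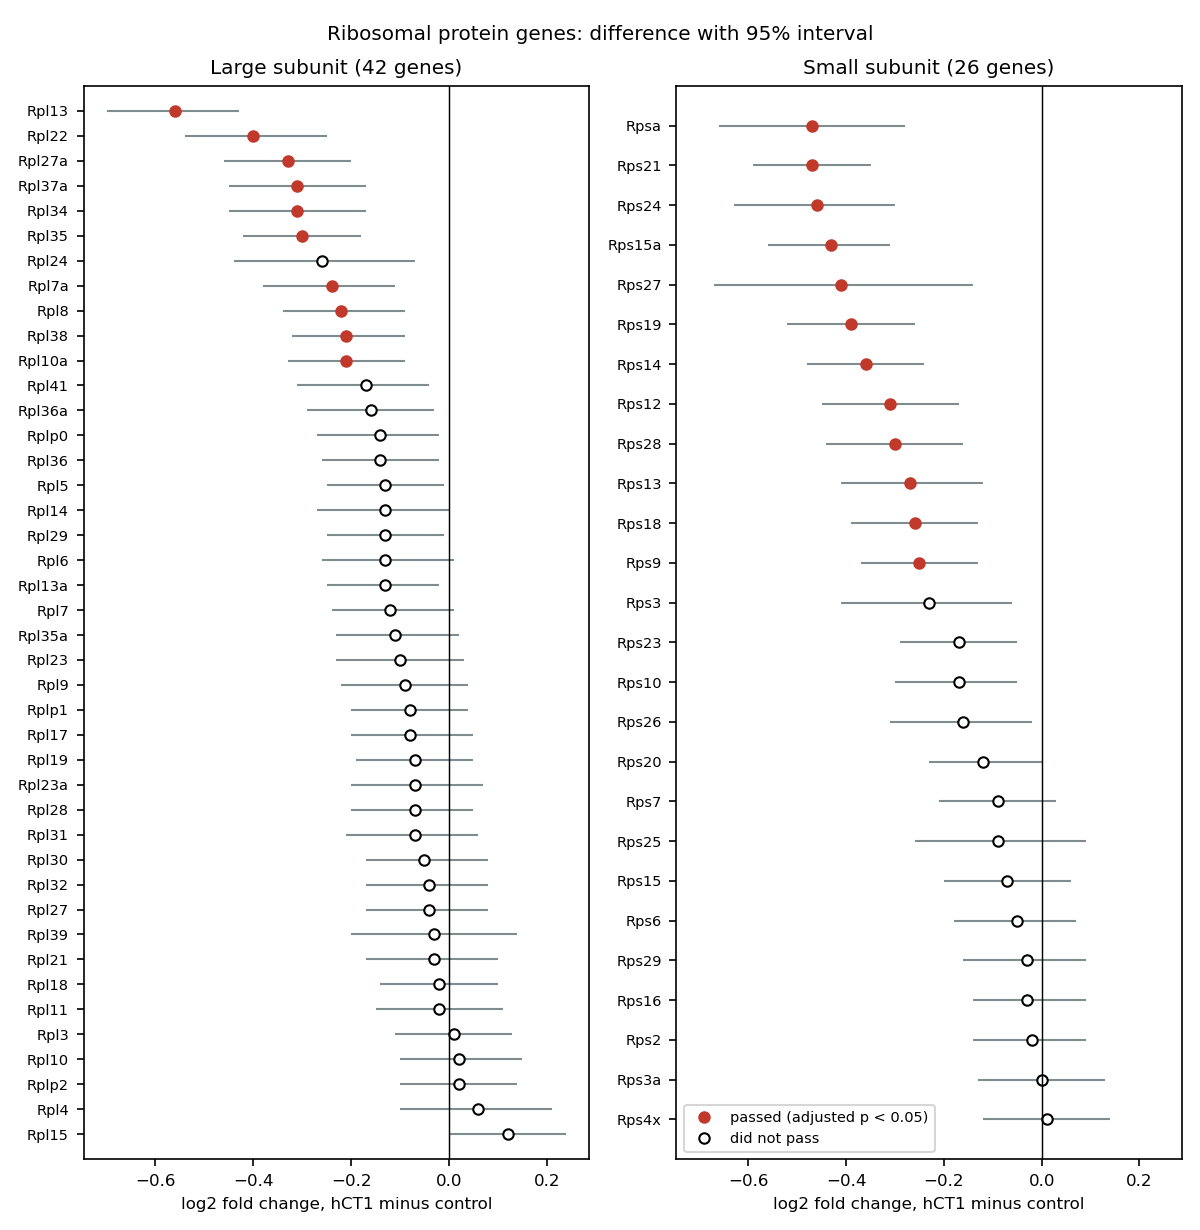
Log2 fold change (hCT1 minus control, x axis) of each ribosomal protein gene with its 95% interval from limma, large subunit left and small subunit right. Filled points passed an adjusted p under 0.05: 10 of 42 and 12 of 26 genes, all of them left of 0.

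In the large subunit, the leading gene was Rpl13, which binds ribosomal RNA near the surface of the subunit. Its log2 values (probe set 10808595) were 9.68, 9.64 and 9.72 in hCT1 samples, against 10.30, 10.15 and 10.27 in control samples. The highest hCT1 value lay well under the lowest control value. The log2 fold change was -0.56 with an SE of 0.06 and a limma adjusted p of 0.000506, so the hCT1 level was 67.7% of control. Rpl22, which also binds RNAs outside the ribosome, had log2 values of 9.15, 9.17 and 9.22 with hCT1 and 9.69, 9.54 and 9.50 in control (probe set 10874330). These groups also stood apart, with a log2 fold change of -0.40 (SE 0.06, limma adjusted p = 0.00396).

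Rpl35 sits at the exit of the peptide tunnel, where the signal recognition particle docks. It measured 11.28, 11.23 and 11.24 in hCT1 samples and 11.58, 11.50 and 11.57 in control samples on the log2 scale. The hCT1 samples were all lower, by -0.30 in log2 fold change (SE 0.05, limma adjusted p = 0.00739). Rpl27a, part of the core of the large subunit, measured 10.18, 10.14 and 10.22 with hCT1 and 10.51, 10.44 and 10.57 in control. No hCT1 sample reached the control range, and the log2 fold change was -0.33 (SE 0.06, limma adjusted p = 0.00677). Rpl34 and the zinc-binding Rpl37a both had a log2 fold change of -0.31, with limma adjusted p-values of 0.0117 for Rpl34 and 0.0109 for Rpl37a.

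The remaining falls in the large subunit were smaller. Rpl7a had a log2 fold change of -0.24 (limma adjusted p = 0.0288) and Rpl8, which lies by the peptidyl transferase centre, one of -0.22 (limma adjusted p = 0.0298). Rpl10a, the protein of the mobile L1 stalk, and Rpl38, needed in mice for the translation of certain Hox messenger RNAs, both had -0.21, with limma adjusted p-values of 0.031 for Rpl10a and 0.0305 for Rpl38. In each of these 4 genes the hCT1 samples stood below the control samples, but none of the 4 kept its call under more than 11 of 18 alternative settings. Rpl22, Rpl27a and Rpl35 kept it under all 18.

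The P stalk of the large subunit recruits elongation factors. Its base Rplp0 measured 11.33, 11.39 and 11.42 in hCT1 samples and 11.58, 11.49 and 11.51 in control samples, a log2 fold change of -0.14 (SE 0.06, limma adjusted p = 0.121) although the groups did not overlap. Of the 4 proteins listed for the stalk and its base 3 were measured, with a median log2 fold change of -0.08 and 0 called by limma after adjustment, 1 at an unadjusted p under 0.05. At that unadjusted threshold, 19 of all 42 large subunit genes were lower. Rpl5 and Rpl11, which form the 5S particle with 5S ribosomal RNA and can bind the p53 regulator Mdm2, had log2 fold changes of -0.13 and -0.02 with no call. Of 9 proteins at the peptide exit tunnel 8 were measured and 2 fell, Rpl22 and Rpl35, with a median of -0.07 over the 8. That share was near the 23.8% of the whole large subunit.

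The highest positive values in the large subunit were those of Rpl15, Rpl4 and Rpl10, and none passed. Rpl15 measured 6.49, 6.55 and 6.54 with hCT1 and 6.42, 6.37 and 6.42 in control (log2 fold change 0.12, limma adjusted p = 0.162). Its probe set was at the 47.4th percentile of signal, whereas the median large subunit gene was at the 98.3rd, and may lie near background. Rpl4, which lines the exit tunnel, had a log2 fold change of 0.06 and Rpl10, which joins the subunit late in its assembly, one of 0.02, with overlapping groups in both.

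In the small subunit, Rps21 and Rpsa shared the largest difference. Rps21 (probe set 10842805) measured 9.81, 9.78 and 9.80 in hCT1 samples, against 10.22, 10.27 and 10.30 in control samples. The 3 hCT1 values were nearly equal and all lay below the control range, with a log2 fold change of -0.47 (SE 0.05, limma adjusted p = 0.000674), or 72.3% of control. Rpsa, also known as the laminin receptor precursor, measured 10.29, 10.13 and 10.30 with hCT1 and 10.85, 10.54 and 10.74 in control (probe set 10914308). Its samples spread more widely but did not overlap, with a log2 fold change of -0.47 (SE 0.09, limma adjusted p = 0.00713).

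Rps24 measured 9.43, 9.68 and 9.51 with hCT1 and 10.04, 9.94 and 10.02 in control, a log2 fold change of -0.46 (limma adjusted p = 0.00377). Rps15a measured 9.33, 9.38 and 9.42 with hCT1 and 9.82, 9.76 and 9.85 in control, a log2 fold change of -0.43 (limma adjusted p = 0.00137). In both genes the hCT1 samples were all below the control samples. Rps19, the gene most often mutated in human Diamond-Blackfan anaemia, measured 10.04, 10.05 and 10.09 in hCT1 samples and 10.53, 10.42 and 10.42 in control samples. It fell to 76.2% of control (log2 fold change -0.39, SE 0.06, limma adjusted p = 0.00238). Rps14, whose loss of 1 copy marks the human 5q- syndrome, measured 9.61, 9.63 and 9.59 with hCT1 and 9.99, 9.93 and 9.98 in control. It was lower in every hCT1 sample, with a log2 fold change of -0.36 (SE 0.05, limma adjusted p = 0.00242).

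**Figure D2:**
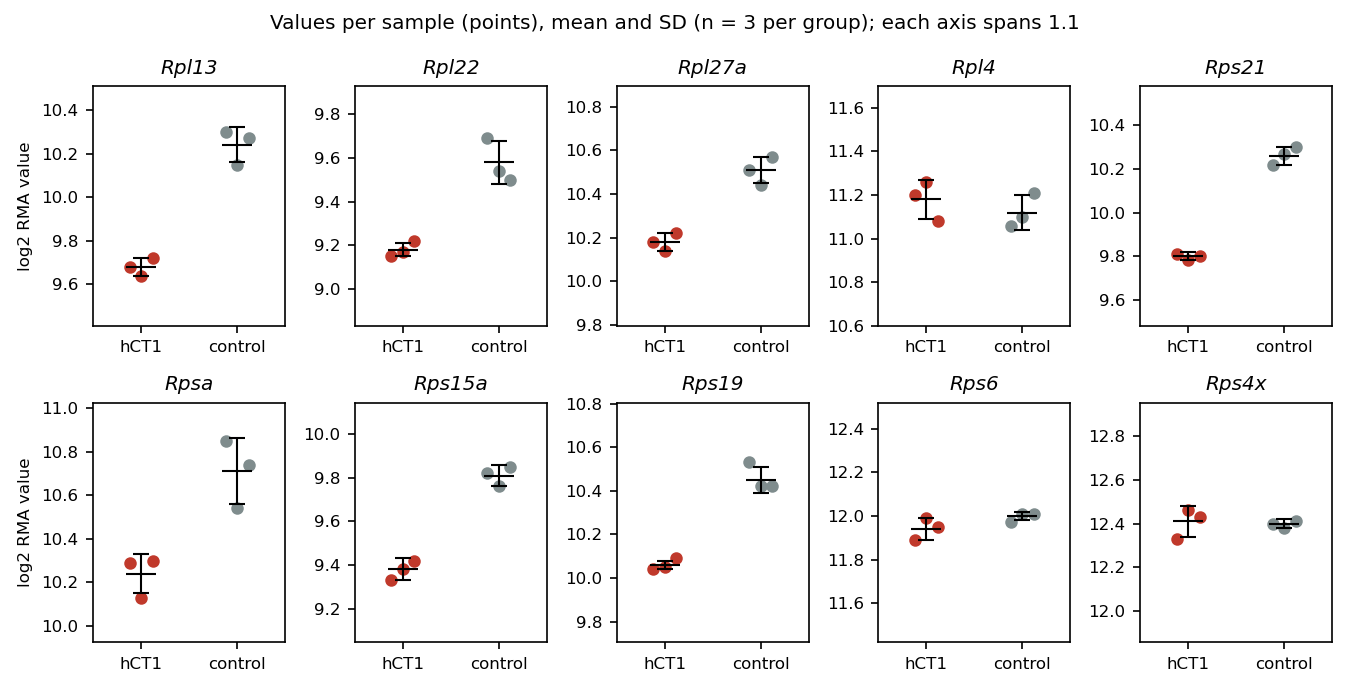
Log2 RMA value (y axis, each panel spanning 1.1) in the 3 hCT1 samples (red, left) and the 3 control samples (grey, right) for 10 genes, with the mean and SD. The hCT1 points lie below all control points in Rpl13, Rpl22, Rpl27a, Rps21, Rpsa, Rps15a and Rps19, and the groups overlap in Rpl4, Rps6 and Rps4x.

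Rps12, Rps28, Rps13, Rps18 and Rps9 fell with log2 fold changes between -0.31 and -0.25, each with its groups apart. Rps18, Rps12, Rps19 and Rps28 were the 4 called among the 11 measured proteins of the small subunit head, the domain that contacts the transfer RNAs, and the median over these 11 was -0.17. Their share, 36.4%, was not above the 46.2% of the whole small subunit. Rps27, a zinc-binding protein, passed the test narrowly. It measured 4.31, 4.72 and 4.50 in hCT1 samples and 4.71, 5.10 and 4.95 in control samples, so that hCT1 replicate 2 lay above control replicate 1. Its log2 fold change was -0.41 with an SE of 0.12 (limma adjusted p = 0.0494). The probe set stood at the 29.3rd percentile of signal, may lie near background, and kept its call in 7 of 16 settings.

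Rps6, the target of S6 kinase at the foot of the small subunit, measured 11.89, 11.99 and 11.95 with hCT1 and 11.97, 12.01 and 12.01 in control. These values overlapped and gave a log2 fold change of -0.05 with a 95% interval from -0.18 to 0.07 (limma adjusted p = 0.568). The highest value of the small subunit was that of Rps4x, with a log2 fold change of 0.01 and an interval from -0.12 to 0.14. Rps3a followed at 0.0 and Rps2 was at -0.02. A difference as large as that of Rpl13 lay outside these intervals. Of the 17 measured genes whose mutation is known to cause Diamond-Blackfan anaemia in humans, 6 fell (Rps24, Rps27, Rps19, Rps28, Rpl35 and Rpl8), with a median of -0.13. That share, 35.3%, was near the 32.4% of the whole family.

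**Figure D3:**
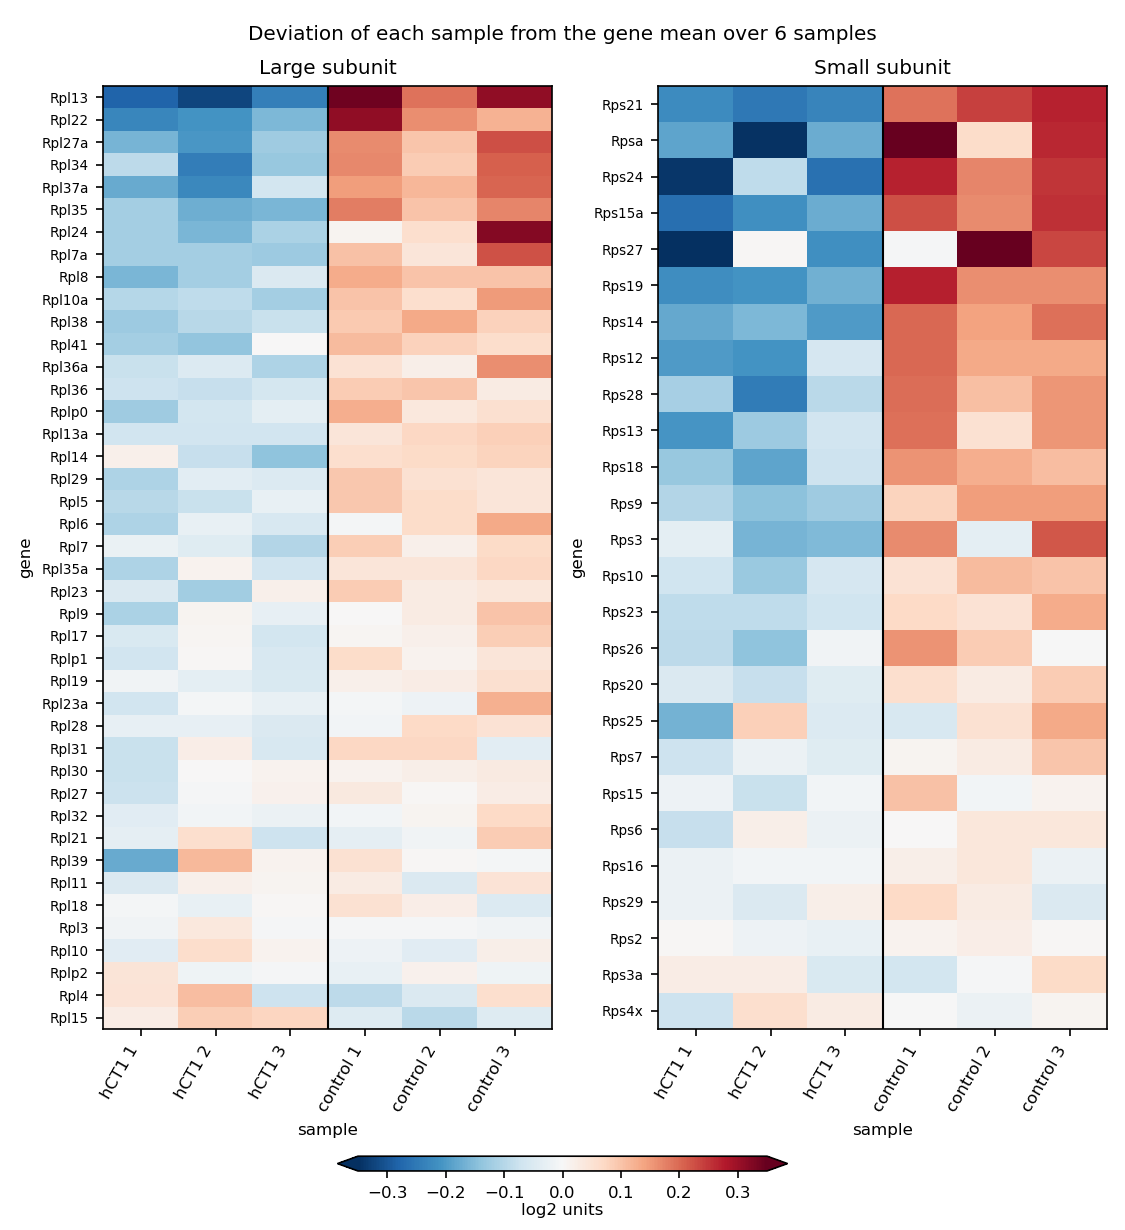
Deviation of each sample (columns, hCT1 left of the line and control right) from the gene's mean over the 6 samples in log2 units, for each ribosomal protein gene (rows, most negative log2 fold change on top). Blue cells are below and red cells above the gene mean. The upper rows of both panels are blue in the 3 hCT1 samples and red in the 3 control samples with Rps27 mixed, and the lowest rows show no such split except Rpl15, which is reversed.

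The 22 genes that fell had median deviations of -0.18, -0.20 and -0.13 in the hCT1 samples and 0.19, 0.13 and 0.18 in the control samples, which follows from their choice. For the 46 with no call the medians were -0.07, -0.02 and -0.04 with hCT1 and 0.03, 0.03 and 0.05 in control. Over all genes tested they were 0.01, -0.02 and -0.01 with hCT1 and 0.02, 0.0 and 0.0 in control. The genes with no call thus lay below all genes in hCT1 replicates 1 and 3, and level with them in replicate 2.

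The array measured most genes more than once: 249 probe sets were paired with the 68 genes, 15 genes having 1 and Rpl21 having 21. Of the 249, 84 were lower, 0 were higher and 232 had a negative log2 fold change; over all probe sets tested, 9.84% were lower and 4.98% higher. Without adjustment, at a limma p under 0.05, 136 of the 249 were lower and 2 higher. By the brightest set of each gene, 2592 of all 14506 genes were lower and 1735 higher at that threshold. Because the probe sets held 241 different profiles over the 6 samples, and others were close to each other, they are not independent measurements. In 14 of the 53 genes with several probe sets every set was lower, and in 27 none was. With at least 1 of their probe sets counted, 29 of the 68 genes (42.6%) were lower, against 9.75% of all genes. These shares are not alike, since all 14506 genes had only 15310 probe sets and so fewer chances per gene.

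The probe sets of 12 genes differed in whether they passed, namely Rpl5, Rpl7a, Rpl10a, Rpl13, Rpl24, Rpl27, Rpl29, Rpl36, Rpl38 and Rpl41 of the large subunit and Rps9 and Rps10 of the small subunit. Most of these differed by little, as in Rpl36, where the log2 fold changes of 10 sets ran between -0.22 and -0.14. Rpl13, Rpl27 and Rps9 differed by more. Of the 7 sets of Rpl13, 6 had values between -0.58 and -0.52, whereas probe set 10808601 measured 8.59, 8.50 and 8.46 with hCT1 and 8.44, 8.86 and 8.44 in control, a log2 fold change of -0.06 (limma adjusted p = 0.732). Rpl27 had log2 fold changes of -0.04 and -0.06 in 2 sets and of -0.26 in the third (probe set 10938579, limma adjusted p = 0.02). The 3 sets of Rps9 had -0.39, -0.25 and -0.17, of which the last (probe set 10932836, at log2 values of 5.42 to 5.90) did not pass. The sets of Rpl6, Rpl9 and Rps2 differed in sign, but none of their values passed.

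**Figure D4:**
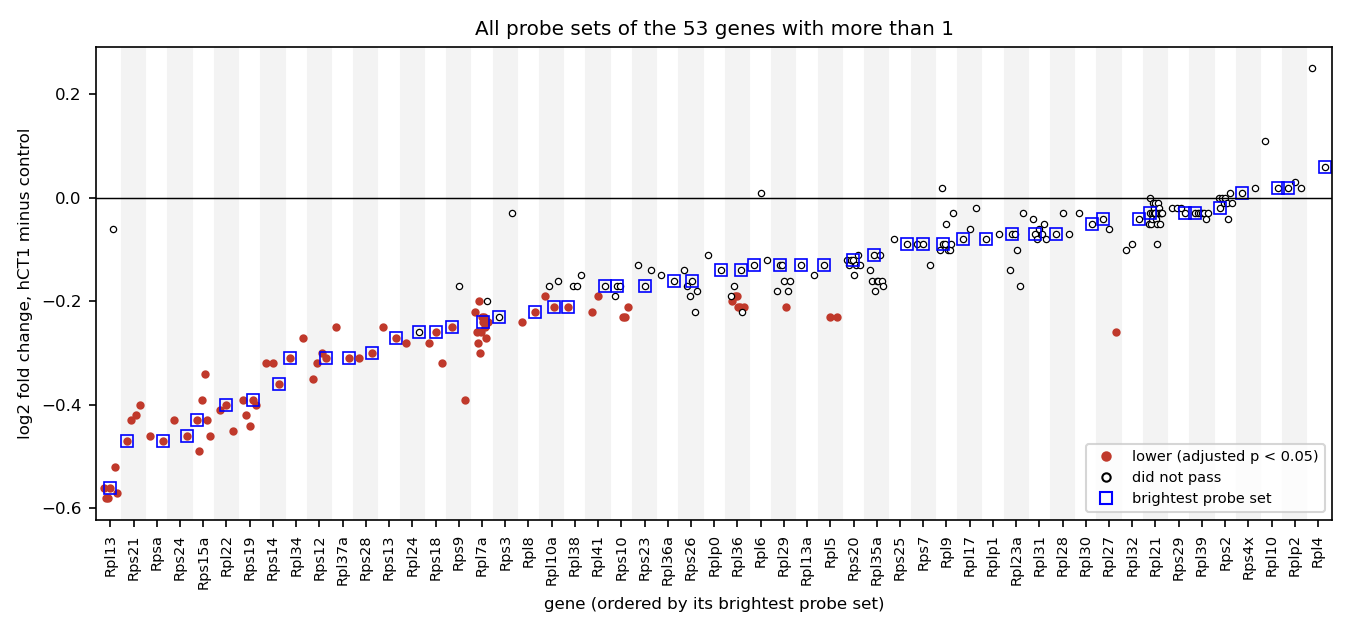
Log2 fold change (hCT1 minus control, y axis) of every probe set of the 53 genes with more than 1 (x axis, ordered by the brightest set, which is boxed in blue). Red points passed an adjusted p under 0.05. The sets of most genes lie close together, and 1 set of Rpl13 stands at -0.06, apart from the other 6.

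Falls were most frequent among genes of moderately high array signal, a quantity that depends on the probes as well as on the amount of RNA. Between mean log2 values of 9 and 10, 6 of 7 ribosomal protein genes fell, whereas 9.76% of all genes in that range were lower. Between 10 and 11 the count was 10 of 15, with 10.3% of all genes lower. At 11 and above it was 5 of 42 (11.9%), with 4.85% of all genes lower. Across all 68 genes, Pearson's r between signal and log2 fold change was 0.41 and Spearman's rho 0.58, given as a description across genes that share the same 6 arrays. By subunit, r was 0.17 and rho 0.41 over the 42 large subunit genes, and r was 0.61 and rho 0.73 over the 26 small subunit genes. Over all 14506 genes tested, r was -0.13 and rho -0.18, of the opposite sign. Over the 66 ribosomal protein genes with a mean of at least 8, r was 0.62 and rho 0.64. Within genes no such order was seen: of 51 genes with several sets at 8 or above, the brightest set had the less negative value in 22 and the more negative value in 29. Among all genes above the 75th percentile of signal, fitted alone, 18.5% were lower and 15.3% higher, whereas 34 of the 66 ribosomal protein genes there (51.5%) were lower.

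**Figure D5:**
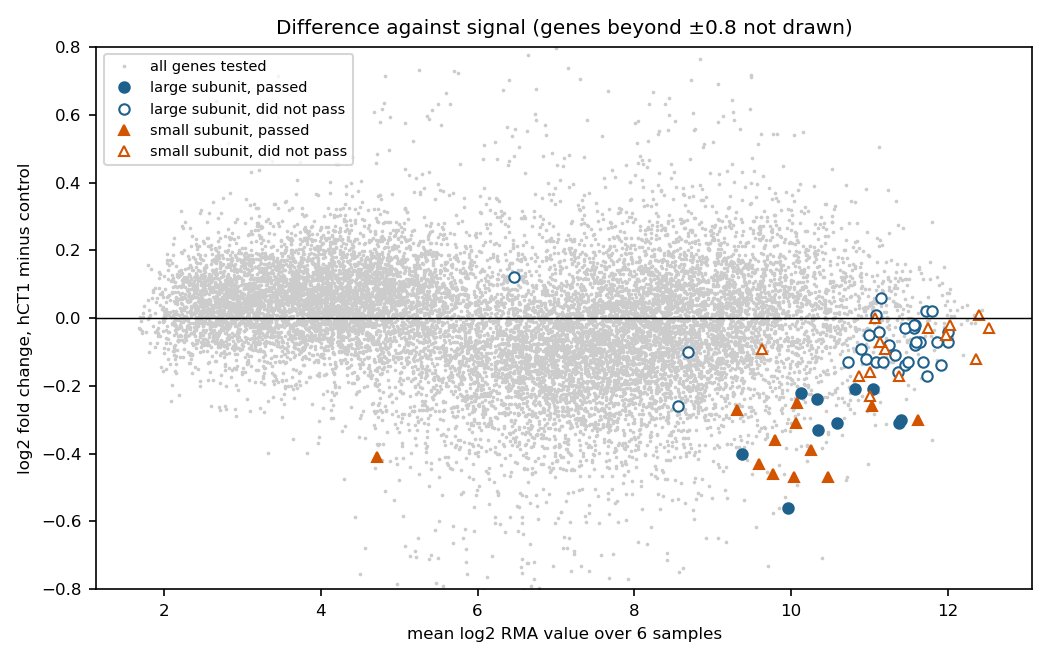
Log2 fold change (hCT1 minus control, y axis) against the mean log2 RMA value over the 6 samples (x axis) for all genes (grey, 108 beyond 0.8 in size not drawn) and the ribosomal protein genes (blue circles large subunit, orange triangles small subunit, filled where they passed). Filled symbols gather between 9 and 11, and the open symbols above 11 lie closer to 0.

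The upper quartile of all probe set values was 7.79, 7.79 and 7.78 in the hCT1 samples and 7.86, 7.85 and 7.82 in the control samples. After another round of quantile normalization, which removes that difference, 9 large subunit genes and 11 small subunit genes were lower, and the medians were -0.09 for the large and -0.18 for the small subunit. Over all probe sets the split then was 1148 lower and 917 higher, in place of 1506 lower and 762 higher. Of 8 cardiomyocyte markers 3 fell (Tnni3, Myh6 and Mybpc3), while the other 5 did not pass, with log2 fold changes between -0.13 (Ryr2) and 0.03 (Tnnt2). The summed level of the 8 in log2 was 13.97 to 14.06 with hCT1 and 14.11 to 14.14 in control. Of 4 smooth muscle markers 2 fell, with summed levels of 13.09 to 13.13 with hCT1 and 13.16 to 13.22 in control. Of 8 fibroblast markers 0 were called by limma (without adjustment, 2 were lower and 1 higher by the same threshold), and the summed level was 13.01 to 13.04 with hCT1 and 13.08 to 13.16 in control. Of 6 endothelial markers 1 fell, and of 7 leukocyte and 3 measured erythroid markers 0 were called, with 1 leukocyte marker lower without adjustment. Their summed levels overlapped between the groups. They were 9.91 to 9.95 with hCT1 and 9.88 to 10.07 in control (endothelial), 8.16 to 8.35 and 8.29 to 8.47 (leukocyte), and 6.17 to 6.27 and 6.12 to 6.36 (erythroid). Over all 14506 genes tested, 9.58% were lower, and without adjustment 2592 were lower and 1735 higher. The part of cell composition in the ribosomal protein result was not tested.

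Genes that share a pathway with the ribosomal proteins were read beside them, from lists of translation and ribosome biogenesis. Among 18 measured genes listed for other TOP messenger RNAs, which are mostly translation factors but include Npm1, Nap1l1, Tpt1 and Hnrnpa1, 2 fell (11.1%, beside 9.58% of all genes): Btf3, of the nascent polypeptide-associated complex, with a log2 fold change of -0.23 (limma adjusted p = 0.0223), and Eef1b2, an exchange factor of elongation factor 1, with -0.22 (limma adjusted p = 0.0302). The median of these 18 was -0.05. Fau measured 10.42, 10.38 and 10.41 with hCT1 and 10.67, 10.58 and 10.63 in control, all hCT1 samples being lower (log2 fold change -0.22, limma adjusted p = 0.0241). The paralogs Rpl22l1 and Rps4y2 had log2 fold changes of -0.22 and -0.17 and did not pass. Their limma p-values were 0.0196 and 0.049, or 0.0913 and 0.165 after adjustment. Rpl3l, the striated muscle paralog of Rpl3, was not analysed here.

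The proteins and enzymes that make ribosomes had medians near 0. Of 29 measured ribosome biogenesis factors 4 fell (13.8%, beside 9.58% of all genes) and 0 rose, and their median log2 fold change was 0.07. At an unadjusted p under 0.05 in limma, 5 of them were lower and 6 higher, beside 2592 lower and 1735 higher of all 14506 genes. Those that fell were Nhp2 (-0.30) and Dkc1 (-0.27), which belong to the particle that pseudouridylates ribosomal RNA, Rrp9 (-0.29), of the U3 particle, and Ebna1bp2 (-0.20). Of 12 RNA polymerase I genes 1 fell (8.33%, below the share of all genes), the subunit gene Polr1h, at -0.26 (limma adjusted p = 0.04), with a median of 0.03. Of 14 genes of the mTOR axis 2 fell (14.3%), with a median of -0.07: Maf1, a repressor of RNA polymerase III, at -0.28 (limma adjusted p = 0.00848), and Eif4ebp1, the translation repressor that mTOR inactivates, at -0.27 (limma adjusted p = 0.0161). Myc, a transcription factor that promotes ribosome production, was at 0.02 with overlapping groups. The number of these calls changed with the sample left out. The 10 lower genes of the related lists, Fau included, became 4, 2 and 5 without hCT1 replicate 1, 2 or 3. They became 1 and 3 without control replicate 1 or 2. Without control replicate 3 there were 4 higher genes beside 10 lower. Over all probe sets, the 1506 lower calls became 891, 814 and 998 without hCT1 replicate 1, 2 or 3. Without control replicate 1, 2 or 3 those calls became 803, 825 and 1810.

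The mitochondrial ribosome is a separate particle with its own nuclear-encoded proteins. Of 68 measured genes named Mrpl or Mrps with a number, 19 fell (27.9%) and 2 rose, with a median log2 fold change of -0.14. Over all genes tested, 9.58% were lower and 5.09% higher. The cytosolic family had 22 lower, 0 higher and a median of -0.13. The leading falls were Mrpl48 (-0.44, limma adjusted p = 0.00215), Mrpl14 (-0.43, limma adjusted p = 0.0087) and Mrps16 (-0.41, limma adjusted p = 0.00556). The difference between the 2 families was not tested.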

How the data were processed

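Total RNA of 6 samples, 3 treated with hCT1 and 3 controls, was measured on 1 array each. The deposited values are log2 values per probe set that the authors made with RMA in Affymetrix Expression Console (versions not given in the sources used here), which corrects background, normalizes quantiles between arrays and summarises probes. They were used as deposited, and 0 columns of sample values were left unused. Of 29215 probe sets, 15310 were paired with 1 symbol in the platform annotation and tested, 323 had several symbols and 13582 were unnamed. Entrez identifiers of 15279 of the 15310 matched the RefSeq gene table of GRCr8. Those of the Rps9 probe sets and of 1 Rpl37a probe set did not, and the file's names were kept. The table has no detection calls, and the number of arrays limits the precision. Pearson's r over all probe sets was 0.997 to 0.998 within groups and 0.994 to 0.996 between them.

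Groups and replicate numbers came from the sample titles. A linear model per probe set with moderated variances (lmFit and eBayes, two-sided) was fitted in limma 3.58.1 under R 4.3.3. The p-values of all 15310 were adjusted by Benjamini-Hochberg and called under 0.05. An exact permutation test of 3 against 3 samples cannot go below 0.1 and was not used. The brightest probe set stood for a gene. Genes named were, per subunit, the 8 largest changes past the threshold and the 3 highest positive values, every gene whose probe sets differed in call or sign, the 3 largest changes past the threshold of each related list, and Rpl3l, Rps6, Rplp0 and Rps19. Any other gene was named with its value in view. The members and the lists were chosen with earlier results of these data known. Simulated data had 200 changed probe sets among 15310, of which the hCT1 against control step recovered 64 of 66 with a log2 change of 1. It recovered 53 of 67 at 0.5 and 14 of 67 at 0.25, with 10 false calls among 141. These shares hold for that setting only, since 2268 probe sets were called in the measured data. The Benjamini-Hochberg threshold is less strict with more calls, and recovery at that number of calls was not tested. Promoter sequences are those of the RefSeq table of GRCr8, and the array has no stated build. The alternatives were other tests and weights, 2 filters on signal, other normalizations, other probe sets, other thresholds, a replicate block and leaving out each sample.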

Additional observations from a re-analysis of the deposited data

How the results depend on the processing

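The large subunit count of 10 lower genes became 19 with trended and robust moderation, 23 with the one-way test of the methods without adjustment, 18 with only probe sets above the 75th percentile of signal, 6 with all probe sets tested and 4 at an adjusted p under 0.01. The one-way test without adjustment also called 1 large subunit gene higher, in place of 0. The median of the large subunit was -0.09 after another quantile normalization and -0.09 after centring, in place of -0.11. The 12 lower genes of the small subunit became 6 at an adjusted p under 0.01. Its median of -0.20 became -0.17 above the 40th percentile of signal, -0.17 above the 75th and -0.16 with the dimmest probe set per gene. The related lists (10 lower, 0 higher) gave 16 lower with the unadjusted one-way test, 5 with the adjusted one, 4 with all probe sets and 1 at an adjusted p under 0.01. Of them 3 were higher with trended and robust moderation, 4 with array weights, 4 with the unadjusted and 2 with the adjusted one-way test, 5 after quantile normalization, 4 above the 40th percentile of signal, 2 above the 75th and 5 at an adjusted p under 0.1. Over all probe sets, 1506 lower became 2467 and 675 with the unadjusted and adjusted one-way tests, 758 above the 75th percentile and 563 at 0.01. The 762 higher became 1483 and 376 with those tests, 296 at 0.01 and 1265 at 0.1. Higher calls were 33.6% of all calls, and 44.4% after quantile normalization. With the replicate number as a block, the large subunit had 6 lower genes, the related lists 5, and all probe sets 490 higher. Whether equal numbers mark paired samples is not stated in the titles. Same-numbered samples had deviations correlated at -0.0253, 0.0459 and -0.285, and differently numbered ones at -0.18 to 0.206. When 1 sample was left out, the counts lower were 6 to 8 in the large subunit, 9 to 11 in the small, 1 to 10 in the related lists and 803 to 1810 over all probe sets. The counts higher were 0 to 0 in both subunits, 0 to 4 in the related lists and 417 to 873 over all. The medians were -0.12 to -0.10 in the large and -0.21 to -0.19 in the small subunit. The cause of these shifts was not tested. Of the 48 genes named by the rule and measured, no called value turned its direction under these alternatives, while 121 results lost a call and 40 gained one among 951 over the alternatives.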
